A study of Mus musculus with 6 samples.

Results

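The genes described here encode the subunits of the mitochondrial respiratory chain and ATP synthase in GL261, a mouse glioma line, and in GL261-GSCs, glioblastoma stem cells derived from it. They were chosen by gene symbol, with earlier results of these data known. Symbols beginning with mt-Nd, mt-Co, mt-Cytb or mt-Atp gave the 13 protein-coding genes of the mitochondrial genome. Symbols beginning with Nduf (a, b, c, s or v), Uqcr, Sdh (a to d), Cox4 to Cox8 or Atp5 gave 102 gene records of the nuclear genome (101 symbols, since Atp5o is listed under 2 identifiers), so that 115 of the 54446 genes in the files belong to the set. The symbol rule also takes 8 assembly factors of complex I (Ndufaf) and 4 of complex II (Sdhaf), which are not subunits. Ndufs6b, Ndufa11b, Ndufb4c and Cox6c2 are annotated as processed pseudogenes and are counted in the set because their symbols match. After the filter on low counts 111 members were tested, all 13 mitochondrial and 98 nuclear. Cox4i2, Cox8b, Cox8c and the second Atp5o identifier, which had no UMI in any called cell, did not pass.

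The GL261 libraries (2 replicates) came from cells cultured with fetal calf serum in what the labels call differentiation medium. The GL261-GSCs libraries (4 replicates) came from a defined stem cell medium. Both were single-cell libraries of the 10x Genomics 5′ kit, which counts unique molecular identifiers (UMIs) near the 5′ end of each transcript. The labels describe a detergent lysis step and speak of cells or nuclei, name no genetic change or drug, and do not say whether the replicates were separate cultures, so p-values measure the spread between these libraries, which may be technical. All groups share the parent line, and the medium and the derivation of the stem cells cannot be told apart.

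The chain passes electrons from NADH through complex I, or from succinate through complex II, to ubiquinone, then through complex III and cytochrome c to complex IV, which reduces oxygen. The protons moved by complexes I, III and IV drive ATP synthase, complex V. Complex II is encoded entirely in the nucleus, whereas membrane subunits of complex I, cytochrome b of complex III, the catalytic subunits of complex IV and part of the membrane sector of complex V are encoded in the mitochondrial genome and transcribed as long polycistronic RNAs from both strands. In glioma the balance of glycolysis and oxidative phosphorylation is often studied, and many subunits of complex IV have alternative isoforms with tissue-restricted expression.

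Called cells numbered 4264 to 7275 per library with 33320530 to 79472306 UMIs in them. The median cell held 15478 and 13652 UMIs in GL261 but 15375, 11890, 10638 and 6670 UMIs in GL261-GSCs replicates 1 to 4, so depth differed between the groups and most within GL261-GSCs. Any 2 libraries shared 32 to 59 cell barcodes, close to the numbers expected from the size of the barcode list. UMIs were summed per library, expressed as CPM, edgeR's counts scaled to a common library size with TMM factors, and compared with edgeR's quasi-likelihood test, Benjamini-Hochberg adjusted over all 18439 genes tested. A gene is called at an adjusted p under 0.05. Of the marker lists, those of the glioma line and stem cells were mixed. Vim (14050 and 15220 CPM in GL261, 4355 to 5052 CPM in GL261-GSCs), Nes, Cd44 and Sox2 were present in all libraries. Olig2 was near 0 in GL261 (0.918 and 0.0166 CPM) and at 401 to 787 CPM in GL261-GSCs, Gfap was at 1.23 and 1.36 CPM in GL261 and 0 to 0.0549 CPM in GL261-GSCs, and Prom1 was near 0 in all. The summed microglia markers stood at 13 and 13.2 CPM in GL261, nearly all from Csf1r, and at 0.275 to 0.814 CPM in GL261-GSCs. C1qa, Cldn5 and Rbfox3, from the microglia, endothelial and neuron lists, were the markers at 0 in all libraries. The endothelial markers summed to 0.895 and 1.64 CPM in GL261 and 0.394 to 0.888 CPM in GL261-GSCs. The neuron markers still summed to 0.215 and 0.281 CPM in GL261 and 1.26 to 78.4 CPM in GL261-GSCs, where Syt1 carried the sum (1.15, 12.4, 51.6 and 78.2 CPM). Oligodendrocyte markers summed to 59.3 and 60.4 CPM in GL261 and 272 to 377 CPM in GL261-GSCs, and fibroblast or pericyte markers to 252 and 287 CPM against 11.1 to 26.8 CPM. The part of these marker shifts in the results on the respiratory chain was not tested.

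Most nuclear members did not pass the test, and those that did went in both directions. Of the 98 tested, 12 rose in GL261-GSCs and 5 fell, which is 17.3% called, beside 29.9% of all genes tested (15.8% higher and 14.1% lower). No test compared the 2 shares. Their median log2 fold change was -0.02, beside 0.04 for all genes tested, and 73 of the 98 lay within 0.5 of 0. The sign of that median depended on the scaling: with library sizes alone it was 0.13, where the median of all genes also moved, to 0.18. That scaling gave 19 members higher and 2 lower. The count of all genes called with it is not given here, so this balance is not read as one of the members. For 44 nuclear members every stem cell library lay on 1 side of both GL261 libraries, 21 above and 23 below. Among all 18439 genes tested this held for 10453, 5285 above and 5168 below. None of the 13 mitochondrial genes was called by edgeR or by limma-voom, 2 had an unadjusted p under 0.05, and DESeq2 called 3. The plot of fold changes by complex shows 91 of the 98 nuclear members within 1 of 0. Beyond it lie Cox7b2, Cox6b2, Cox7c, Ndufs6b and Atp5s above and Cox6a2 and Ndufa4l2 below.

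**Figure D1:**
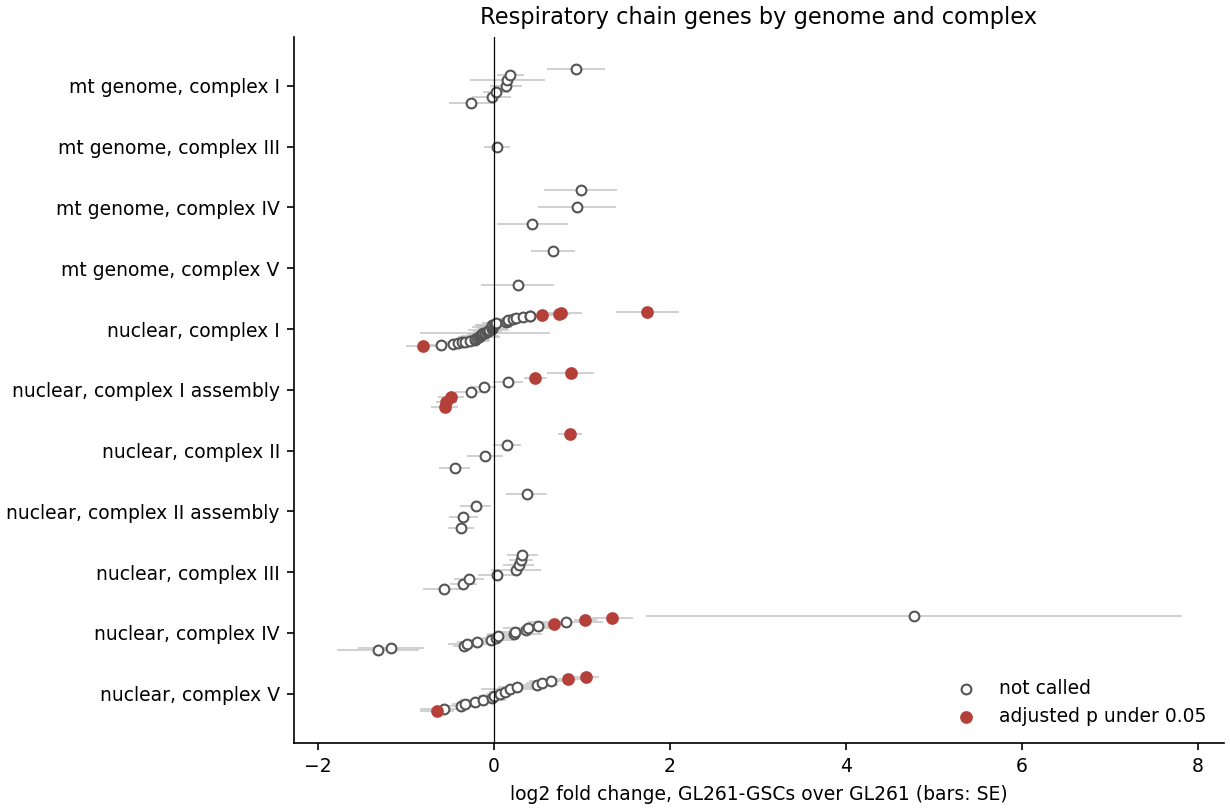
Log2 fold change of each tested member, GL261-GSCs over GL261, with the standard error as a bar, in rows by genome and complex. Filled points passed an adjusted p under 0.05 (edgeR): 12 nuclear members to the right and 5 to the left, and none of the mitochondrial genome. The point near 4.8 is Cox7b2, which was high in 1 library only.

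Complex I, the NADH dehydrogenase, had 39 nuclear members tested, of which 4 rose and 1 fell, with a median log2 fold change of -0.03. Ndufs4 (ENSMUSG00000021764.8, chromosome 13, 114287795 to 114388258), an accessory subunit whose loss causes Leigh-like disease in mice, stood at 80.3 and 83.9 CPM in GL261 and at 131, 142, 148 and 128 CPM in GL261-GSCs. All 4 stem cell libraries lay above both GL261 libraries, a rise whose log2 fold change was 0.74 (SE 0.12, adjusted p = 0.00543, edgeR). Ndufa6, a LYR-family accessory subunit (chromosome 15, 82350140 to 82354322), rose from 238 and 266 CPM to 381, 375, 355 and 368 CPM (log2 fold change 0.55, SE 0.12, adjusted p = 0.0159, edgeR). Neither GL261 library reached the lowest stem cell library. Ndufv3, an accessory subunit of the NADH-binding module (chromosome 17), had 139 and 149 CPM in GL261 and 172, 233, 278 and 295 CPM in GL261-GSCs, a rise that just passed the threshold (log2 fold change 0.76, SE 0.23, adjusted p = 0.0466, edgeR). Ndufs6b (chromosome 7, 81161397 to 81161744), annotated as a processed pseudogene of the Ndufs6 family, had the largest called rise, 3.35-fold, but on 35 UMIs in all GL261 cells and 225 in all GL261-GSCs cells (0.252 and 0.298 CPM against 0.743, 0.8, 0.888 and 1.29 CPM, adjusted p = 0.0123, edgeR).

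The complex I gene that fell was Ndufa2, a thioredoxin-fold accessory subunit (ENSMUSG00000014294.4, chromosome 18, 36742332 to 36744557). It had 695 and 662 CPM in GL261 and 469, 343, 421 and 314 CPM in GL261-GSCs, a fall without overlap (log2 fold change -0.81, SE 0.19, adjusted p = 0.0179, edgeR). Neither complex I core subunit fixed for naming passed by edgeR. Ndufs8, a core subunit named after its values were seen, was lower without overlap (log2 fold change -0.61, SE 0.19, adjusted p = 0.0525, edgeR) and was called by DESeq2. Ndufs1, which carries iron-sulfur clusters of the peripheral arm, had 71.3 and 75.6 CPM against 71, 64.4, 64.7 and 56.9 CPM (adjusted p = 0.293, edgeR). Ndufv1, which binds NADH and FMN, had 93 and 113 CPM against 89.9, 81.1, 83.4 and 66 CPM (adjusted p = 0.133, edgeR). Both were lower in every stem cell library than in either GL261 library, without passing the adjusted threshold.

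Of the 8 complex I assembly factors, 2 rose and 3 fell. Ndufaf2 (chromosome 13), which assists the late steps of complex I assembly, rose from 36.6 and 38.1 CPM to 84.4, 81, 62.6 and 45.1 CPM (adjusted p = 0.0468, edgeR). It was not called by limma-voom, in barcodes of at least 1000 UMIs, over all barcodes or in cells thinned to 2000 UMIs. Ndufaf7, a methyltransferase that acts on a core subunit (chromosome 17), rose from 19.3 and 22.2 CPM to 29.5, 27.8, 29 and 28.9 CPM (adjusted p = 0.0323, edgeR). The other called factors fell: Ndufaf1, a scaffold of the membrane arm, Ndufaf3, a factor for the Q-module, and Ndufaf8, a small partner of Ndufaf5. Ndufaf3 (chromosome 9) had 40.9 and 43.8 CPM in GL261 and 29.2, 30.9, 28.1 and 28.2 CPM in GL261-GSCs (log2 fold change -0.54, SE 0.12, adjusted p = 0.0139, edgeR). Ndufaf8 (chromosome 11) went from 146 and 155 CPM to 121, 99.8, 102 and 85.7 CPM (adjusted p = 0.0346, edgeR). Ndufaf1 (chromosome 2) went from 22 and 23.9 CPM to 18.2, 17.3, 15 and 14.9 CPM (adjusted p = 0.0445, edgeR). Under 14 other processing settings Ndufaf3 was called in all 14, Ndufaf8 in 11, Ndufaf2 and Ndufaf7 in 10 each, and Ndufaf1 in 8. Of 8 further complex I assembly genes fixed as a separate list, none passed by edgeR, 1 had an unadjusted p under 0.05, and DESeq2 and limma-voom each called 1, Tmem126b, at 14.8 and 14.3 CPM against 10.9, 10.4, 11 and 11.1 CPM.

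In complex II, succinate dehydrogenase, only the flavoprotein rose. Sdha (ENSMUSG00000021577.14, chromosome 13, 74322254 to 74350280), which oxidizes succinate in the citric acid cycle, had 48.3 and 51.3 CPM in GL261 and 102, 87.3, 92.1 and 81.2 CPM in GL261-GSCs. The groups were well apart, 1.82-fold (log2 fold change 0.86, SE 0.14, adjusted p = 0.00442, edgeR). Its iron-sulfur partner Sdhb had 263 and 298 CPM against 227, 230, 208 and 159 CPM, lower in all 4 libraries but not called (log2 fold change -0.45, SE 0.18, adjusted p = 0.101, edgeR). Sdhc and Sdhd, the membrane anchors, and the 4 assembly factors had adjusted p-values from 0.103 to 0.736 (edgeR). None of the 4 assembly factors was called by edgeR, DESeq2 or limma-voom, and 1 had an unadjusted p under 0.05.

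Complex III, the cytochrome bc1 complex, had none of its 8 nuclear members called by edgeR, DESeq2 or limma-voom, with 1 unadjusted p under 0.05. Uqcrc1, a core subunit, had 205 and 209 CPM against 192, 188, 167 and 133 CPM (adjusted p = 0.251, edgeR). Uqcrfs1, the Rieske iron-sulfur protein, had 161 and 164 CPM against 287, 190, 153 and 147 CPM, so that only replicates 1 and 2 lay above GL261 (adjusted p = 0.53, edgeR).

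Complex IV, cytochrome c oxidase, had the highest median among the complexes, 0.23, with 3 of 18 tested members higher and none lower. Cox7c (ENSMUSG00000017778.14, chromosome 13, 86044816 to 86046904), a small membrane subunit, had the smallest adjusted p of all nuclear members. It stood at 341 and 337 CPM in GL261 and at 755, 688, 695 and 648 CPM in GL261-GSCs, a 2.05-fold rise (log2 fold change 1.04, SE 0.13, adjusted p = 0.00187, edgeR). After each cell was thinned to 2000 UMIs, 44.9% of cells in both GL261 libraries (44.93% and 44.88%) and 62.2% to 71.3% of cells in GL261-GSCs had a Cox7c UMI. Without thinning these shares were 90.7% and 90.5% against 80.6% to 95.2%. Cox6c (chromosome 15, 35925886 to 35938246) rose from 522 and 532 CPM to 961, 885, 806 and 726 CPM (log2 fold change 0.68, SE 0.16, adjusted p = 0.0184, edgeR).

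Several complex IV subunits exist as alternative isoforms, of which 1 (Cox6b2) was called. No test compared isoforms with each other. For subunit VIb, the testis-enriched Cox6b2 (ENSMUSG00000051811.14, chromosome 7, 4751792 to 4753094) rose from 16 and 16.5 CPM to 41, 29.1, 43.7 and 51.4 CPM (log2 fold change 1.35, SE 0.24, adjusted p = 0.00694, edgeR). The widely expressed Cox6b1 had 657 and 658 CPM against 545, 513, 542 and 474 CPM, lower without overlap but not called (adjusted p = 0.079, edgeR). For subunit VIa, the muscle isoform Cox6a2 had 4.12 and 4.7 CPM against 1.79, 2.87, 1.08 and 2.09 CPM (log2 fold change -1.17, SE 0.37, adjusted p = 0.0542, edgeR), and the general isoform Cox6a1 had 696 and 716 CPM against 1143, 859, 879 and 748 CPM (adjusted p = 0.194, edgeR). In both pairs the 2 isoforms had fold changes of opposite sign, and in 1 of the 4 genes, Cox6b2, the change passed the threshold by edgeR. DESeq2 called Cox6a2 and Cox6b1 as well, and limma-voom called Cox6a2.

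Among the remaining pairs, Cox4i1, the general form of subunit IV, was close in both groups (1145 and 1182 CPM against 1310, 1203, 1205 and 1076 CPM, adjusted p = 0.838, edgeR). Its hypoxia-responsive lung isoform Cox4i2 had 9 UMIs in all GL261 cells and 20 in all GL261-GSCs cells. Cox8a, the general form of subunit VIII, was higher in all 4 stem cell libraries (1476 and 1474 CPM against 2344, 2330, 1972 and 1718 CPM) without passing the test (log2 fold change 0.50, SE 0.18, adjusted p = 0.0708, edgeR). It was called by DESeq2, with library size scaling and with a mitochondrial limit of 5% on cells. Cox8b, the muscle form, had 1 UMI in GL261 and 12 in GL261-GSCs, a ratio of 6.02 with a 95% counting interval of 0.891 to 257, and Cox8c had 1 UMI in all. Cox7a1, the muscle form of subunit VIIa, had 1.73 and 1.67 CPM against 1.91, 2.03, 3.35 and 4.72 CPM (adjusted p = 0.192, edgeR). Cox7a2 and the supercomplex factor Cox7a2l were not called (adjusted p = 0.929 and 0.346, edgeR). Ndufa4l2, a hypoxia-inducible relative of the complex IV subunit Ndufa4, had 0.785 and 0.845 CPM against 0.182, 0.58, 0.275 and 0.247 CPM (adjusted p = 0.0733, edgeR), and Ndufa4 had 765 and 856 CPM against 1126, 1053, 908 and 737 CPM (adjusted p = 0.396, edgeR).

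Cox7b2, the testis form of subunit VIIb, was high in a single library. It had 0.444 and 0.315 CPM in GL261 and 40.9, 0.828, 0.0125 and 0 CPM in GL261-GSCs replicates 1 to 4, and no group difference was called (adjusted p = 0.275, edgeR). In GL261-GSCs replicate 1, 1848 of 4264 cells (43.3%) had a Cox7b2 UMI, where an even spread over cells by depth would give 45.0%. Thinned to 2000 UMIs a cell, 8.37% of its cells had one (exact 95% interval 7.56 to 9.24%). The shares were 0.0416% and 0.06% in GL261 and 0.17% in GL261-GSCs replicate 2. In GL261-GSCs replicates 3 and 4 none of 7275 and 4512 cells had one. The exact 95% interval there allows shares of up to 0.0507% and 0.0817%, and 3 cells of the total would be 0.0412% and 0.0665%. The barcodes of 100 to 1000 UMIs in replicate 1, which may hold free RNA or small or damaged cells, had Cox7b2 at 56.8 CPM. Cox7b, the general isoform, had 392 and 359 CPM against 469, 253, 429 and 319 CPM. Other genes of chromosome 5, where Cox7b2 lies, had a median log2 ratio of 0.46 between replicate 1 and the mean of the other GL261-GSCs libraries.

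In complex V, ATP synthase, 2 of 17 tested members rose and 1 fell. Atp5s, a factor B-like coupling protein (chromosome 12, 69724950 to 69744660), had 8.53 and 9.51 CPM in GL261 and 18.3, 18.9, 18.1 and 19.2 CPM in GL261-GSCs (log2 fold change 1.05, SE 0.14, adjusted p = 0.00256, edgeR). Atp5g2, one of 3 genes for the c-ring subunit (chromosome 15, 102662864 to 102672352), rose from 635 and 787 CPM to 1299, 1291, 1234 and 1276 CPM (log2 fold change 0.84, SE 0.14, adjusted p = 0.00629, edgeR). The other c-ring genes, which encode the same mature protein, were not called: Atp5g1 had 616 and 718 CPM against 578, 536, 393 and 295 CPM (adjusted p = 0.16, edgeR) and Atp5g3 had 1440 and 1561 CPM against 1728, 1622, 1236 and 924 CPM (adjusted p = 0.748, edgeR). Stretches of 90 bases in the first 300 bases of Atp5g2 and Atp5g1 transcripts matched other genes, mostly processed pseudogenes, in 48.4% and 42.7% of positions, so their counts are uncertain. Atp5a1, the catalytic-head alpha subunit (ENSMUSG00000025428.15, chromosome 18, 77773729 to 77782869), fell from 613 and 600 CPM to 454, 326, 453 and 320 CPM (log2 fold change -0.64, SE 0.19, adjusted p = 0.0449, edgeR). Atp5a1 was not called with library size scaling, with normalization without mitochondrial genome genes or with no filter. Nor was it called without GL261-GSCs replicate 2, 3 or 4. The beta subunit Atp5b, its partner in the head, stood at 1235 and 1252 CPM against 1451, 1268, 1314 and 959 CPM (adjusted p = 0.987, edgeR), and Atp5e was not called (adjusted p = 0.935, edgeR).

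**Figure D2:**
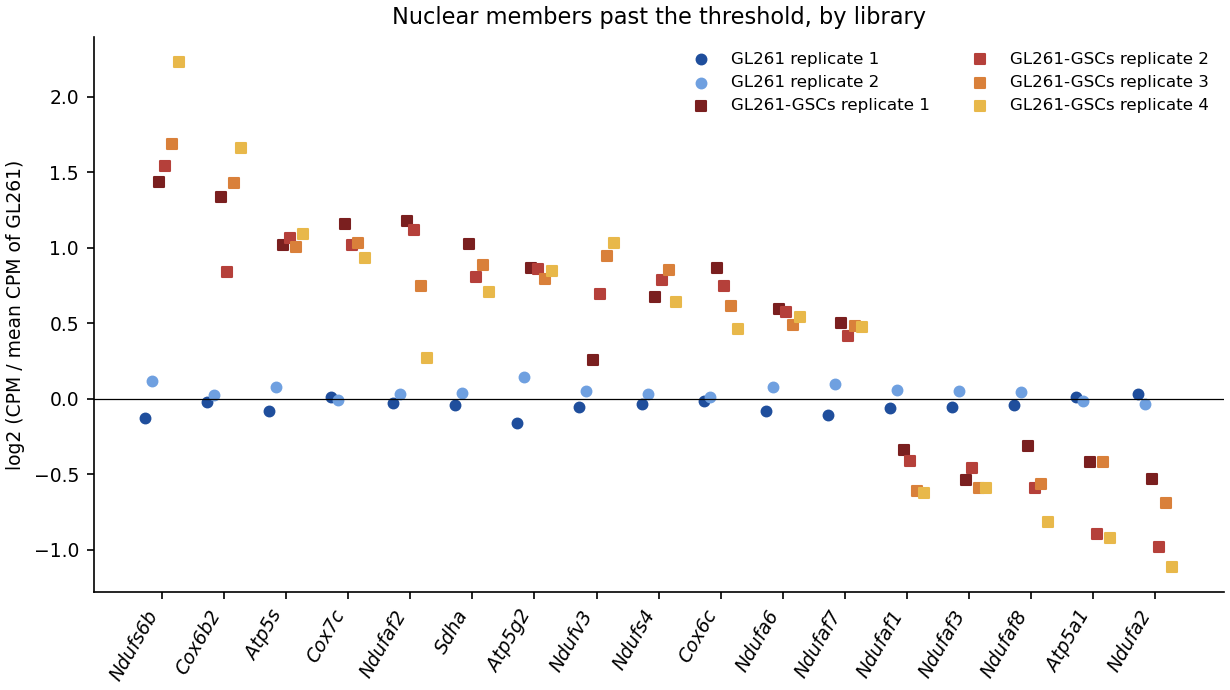
The 17 nuclear members with an adjusted p under 0.05, as log2 of CPM over the mean of GL261, 1 point per library (circles GL261, squares GL261-GSCs). The 12 genes on the left lie above both GL261 libraries in all 4 GL261-GSCs libraries and the 5 on the right below them. Among the GL261-GSCs libraries Ndufaf2 has the widest range and Atp5g2 the narrowest.

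Leaving out a GL261 library leaves 1 sample in that arm, so that the spread then comes from GL261-GSCs alone, with the lone sample taken to vary as much. Without GL261 replicate 1, and likewise without replicate 2, most of the 17 calls were lost, as were most calls among all genes. The fold changes of lost calls could stay as large, for Sdha at 0.81 and 0.90 and for Ndufs4 at 0.70 and 0.77 on the log2 scale. Cox7c and Atp5s were kept in every case of a library left out. Leaving out a GL261-GSCs library kept 11 to 16 of the 17, beside 4003 to 5205 of the 5514 calls among all genes.

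Of the 13 mitochondrial genes, at least 6 cannot be told from a nuclear copy near their 5′ end, where this kit reads. A stretch of chromosome 1 on the minus strand (GRCm38, 24611535 to 24616197) holds copies of consecutive mitochondrial genes, annotated as pseudogenes. The copies of mt-Co2 (681 bases compared), mt-Atp6 (678), mt-Co3 (783) and mt-Nd4l (294), and the first 876 bases of mt-Nd4, were 100% identical to the mitochondrial sequence. The copy of mt-Nd3 differed at 1 of 345 bases, T3C (the mitochondrial base first, counted from the first base of mt-Nd3). Within those bases only a read that covers base 3 can tell the 2 apart. The first 150 bases of an identical pair and of the pair with a difference show why reads there can have more than 1 place in the genome. Capitals mark the difference.
mt-Co2, bases 1 to 150: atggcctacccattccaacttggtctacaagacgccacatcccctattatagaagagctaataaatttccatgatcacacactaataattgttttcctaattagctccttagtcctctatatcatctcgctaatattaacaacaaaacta
Gm28661, chromosome 1 copy of mt-Co2: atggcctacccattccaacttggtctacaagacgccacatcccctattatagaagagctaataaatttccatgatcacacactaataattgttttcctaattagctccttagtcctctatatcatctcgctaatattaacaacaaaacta
mt-Nd3, bases 1 to 150: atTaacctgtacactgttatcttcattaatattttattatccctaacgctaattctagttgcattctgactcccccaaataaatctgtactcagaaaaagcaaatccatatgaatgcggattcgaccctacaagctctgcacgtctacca
Gm28438, chromosome 1 copy of mt-Nd3: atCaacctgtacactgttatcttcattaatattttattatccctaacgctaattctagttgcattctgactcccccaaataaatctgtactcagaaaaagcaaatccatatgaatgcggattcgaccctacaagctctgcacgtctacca
The levels of these genes are therefore uncertain. mt-Co2 had 3.63 and 2.19 CPM in GL261 and 2.71, 2.73, 5.35 and 4.97 CPM in GL261-GSCs, mt-Atp6 ranged from 1.94 to 5.13 CPM, mt-Co3 from 0.696 to 2.33 CPM, mt-Nd3 from 0.412 to 0.938 CPM and mt-Nd4l from 9.59 to 18.1 CPM, and none was called by edgeR, DESeq2 or limma-voom, with no unadjusted p under 0.05. Of the chromosome 1 records, only Gm28438 was called, as higher (0.889 and 0.63 CPM against 2.24, 2.07, 2.84 and 2.14 CPM, adjusted p = 0.00765, edgeR). Gm28661, Gm10925, Gm28437, Gm10222 and Gm29216 were not called (adjusted p from 0.158 to 0.937, edgeR), and Gm28439 did not enter the test. Whether the reads counted for Gm28438 came from that copy or from mt-Nd3 was not tested. mt-Nd4, which is unique beyond its copied part, had 295 and 263 CPM against 284, 292, 372 and 323 CPM (adjusted p = 0.398, edgeR). The chromosome 1 copy of mt-Co1 covers only its 3′ part. The search for shared 5′ ends covered annotated transcripts only. mt-Atp8 starts between mt-Co2 and mt-Atp6, whose copies both lie in this stretch. The bases between those 2 copies on chromosome 1, from 24614651 to 24614885, were not compared with mt-Atp8. Whether they hold an unannotated copy of it was thus not tested, so its level may be uncertain too.

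Of the 7 mitochondrial genes whose 5′ end is not largely shared with an annotated transcript, 4 had groups that overlapped. The other 3 were higher in all GL261-GSCs libraries without being called, as were 5285 of all 18439 genes tested, called or not. mt-Cytb (chromosome M, 14145 to 15288), the cytochrome b of complex III, had 4174 and 4078 CPM in GL261 and 4394, 4075, 4693 and 3772 CPM in GL261-GSCs (log2 fold change 0.04, SE 0.15, adjusted p = 0.872, edgeR). The complex I genes mt-Nd1, mt-Nd2 and mt-Nd5 had log2 fold changes of 0.13, 0.02 and -0.03, respectively, with adjusted p-values of 0.61, 0.928 and 0.936 (edgeR). mt-Co1 (5328 to 6872), the catalytic subunit of complex IV, had 2042 and 2101 CPM in GL261, 2523 and 2614 CPM in GL261-GSCs replicates 1 and 2, and 4965 and 6299 CPM in replicates 3 and 4. The log2 fold change was 0.99 (SE 0.42, adjusted p = 0.119, edgeR), and most of the spread lay between pairs of stem cell libraries. mt-Nd6 (13552 to 14070), the only protein gene on the other strand, was also highest in replicates 3 and 4, with 74.8 and 76.9 CPM against 108, 99, 160 and 213 CPM (log2 fold change 0.93, SE 0.33, adjusted p = 0.0715, edgeR). It overlaps mt-Nd5 on the opposite strand. mt-Atp8 (7766 to 7969), a membrane subunit of ATP synthase that overlaps mt-Atp6, had 422 and 626 CPM against 769, 666, 818 and 1080 CPM (log2 fold change 0.67, SE 0.25, adjusted p = 0.0869, edgeR). DESeq2 called mt-Co1, mt-Nd6 and mt-Atp8. By edgeR mt-Nd6 was called with no filter and without GL261-GSCs replicate 1 or replicate 2 (adjusted p = 0.0435 and 0.0416).

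**Figure D3:**
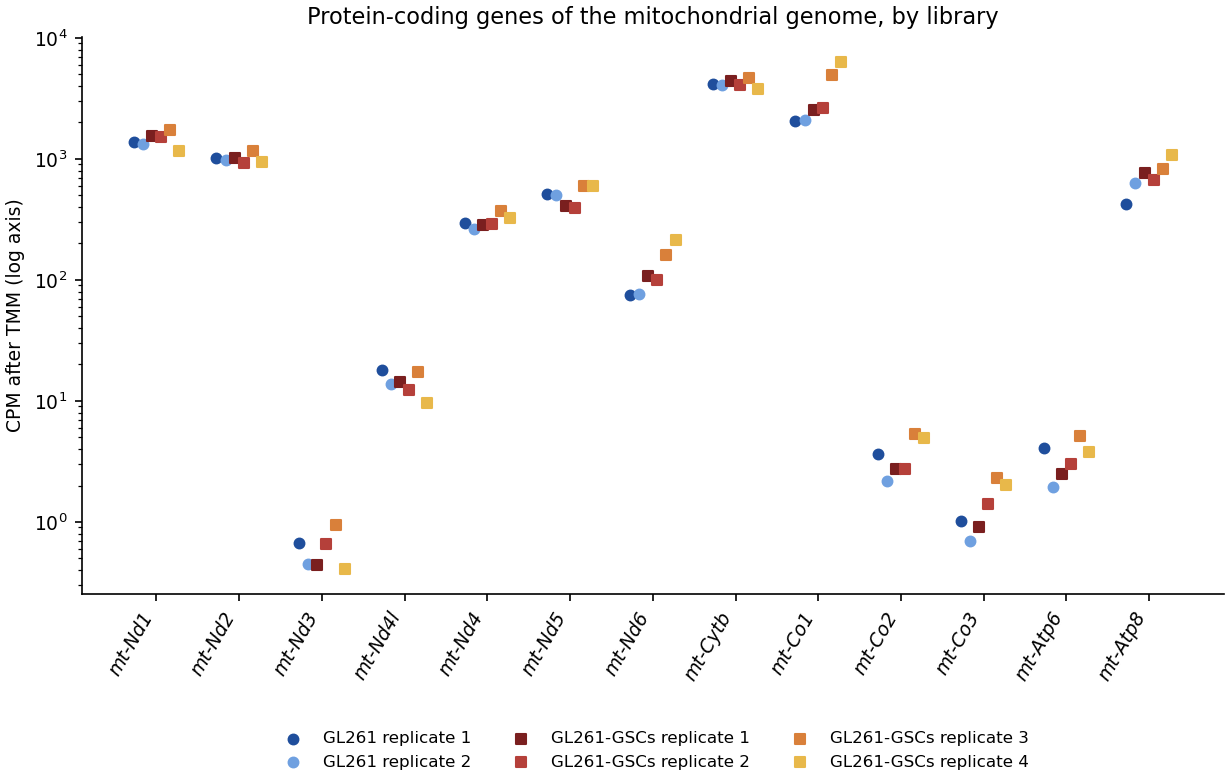
CPM after TMM (log axis) of the 13 protein-coding mitochondrial genes, 1 point per library (circles GL261, squares GL261-GSCs). The groups overlap for mt-Cytb, mt-Nd1 and mt-Nd2, while mt-Co1 and mt-Nd6 are highest in GL261-GSCs replicates 3 and 4. The genes with an annotated copy of their 5′ end on chromosome 1 (mt-Nd3, mt-Nd4l, mt-Nd4, mt-Co2, mt-Co3 and mt-Atp6) are uncertain. An unannotated copy of mt-Atp8 was not tested for.

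The ratio of mt-Co1 to mt-Cytb UMIs was 0.489 and 0.515 in GL261, 0.574 and 0.641 in GL261-GSCs replicates 1 and 2, and 1.06 and 1.67 in replicates 3 and 4. In cells of 10000 to 16000 UMIs it was 0.482 and 0.52 in GL261, then 0.577, 0.637, 1.01 and 1.38. In barcodes of 100 to 1000 UMIs it was 0.617 and 0.634 in GL261, then 0.684, 0.722, 1.16 and 2.02. The order of libraries was thus the same in cells of 1 depth and in those barcodes, and in every library the ratio was higher in cells of 2000 to 6000 UMIs than in cells of 16000 to 30000 UMIs. The mitochondrial 12S rRNA, mt-Rnr1, had 309 and 289 CPM against 326, 366, 457 and 549 CPM (adjusted p = 0.137, edgeR), and the 16S rRNA, mt-Rnr2, had 2105 and 1796 CPM against 1832, 2118, 2520 and 2479 CPM (adjusted p = 0.445, edgeR). Malat1, a nuclear long noncoding RNA, had 4665 and 4722 CPM against 2855, 3331, 4541 and 7445 CPM.

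Summed over members of each genome, the plain share of UMIs in called cells was higher in GL261-GSCs, but for the nuclear sum this did not hold under the TMM scaling used for the tests. The 13 mitochondrial genes made up 0.946% and 0.914% of the UMIs of called cells in GL261 against 1.11%, 1.10%, 1.46% and 1.57% in GL261-GSCs, means of 0.93% ± 0.0225 (SD, n = 2) and 1.31% ± 0.242 (SD, n = 4). Without mt-Co1 the shares were 0.752% and 0.721% against 0.861%, 0.826%, 0.962% and 0.885%. The nuclear members made up 2.97% and 3.01% in GL261 against 3.70%, 3.58%, 3.34% and 3.01% in GL261-GSCs, means of 2.99% ± 0.0244 (SD, n = 2) and 3.41% ± 0.308 (SD, n = 4). The mitochondrial share was highest, and the nuclear share lowest, in GL261-GSCs replicate 4, whose nuclear share barely exceeded that of GL261. Among the nuclear complexes the sum of complex IV separated the groups over all called cells, with 0.772% and 0.771% in GL261 against 1.11%, 1.04%, 0.948% and 0.881%. The nuclear sum overlapped between the groups with no mitochondrial limit on cells, in barcodes of at least 1000 UMIs, over all barcodes and in cells thinned to 2000 UMIs (2.91% and 2.94% against 3.49%, 3.42%, 3.03% and 2.55%). The complex IV sum also overlapped in thinned cells, where replicate 4 had 0.742% and GL261 0.764% and 0.761%. In cells of 10000 to 16000 UMIs the sums of complexes I, III, IV and V each separated the groups, complex I with 0.852% and 0.858% against 0.96%, 0.996%, 0.967% and 0.979%. These shares use plain library sizes, whereas the tests use TMM factors (0.95 and 0.918 in GL261, 1.01 to 1.09 in GL261-GSCs). As a share of the TMM-scaled library size, a setting added after the data were seen, the nuclear sum overlapped, with 3.13% and 3.28% in GL261 against 3.68%, 3.46%, 3.32% and 2.75%, a ratio of means of 1.03. The complex IV sum overlapped too, with 0.812% and 0.84% against 1.10%, 1.002%, 0.942% and 0.806%. The mitochondrial sum did not, with 0.995% and 0.996% against 1.11%, 1.06%, 1.45% and 1.44%.

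In every library the mitochondrial share was highest, and the nuclear share lowest, in the shallowest cells. From cells of 2000 to 6000 UMIs to cells of 16000 to 30000 UMIs, the mitochondrial share went from 2.31% to 0.784% in GL261 replicate 1 and from 3.59% to 1.14% in GL261-GSCs replicate 3, and the nuclear share went from 2.48% to 2.98% and from 1.81% to 3.62%. Across cells, Pearson's r between both shares was -0.449 and -0.583 in GL261 against -0.576 to -0.749 in GL261-GSCs, as a description of shares with a common denominator. Cells of 2000 to 6000 UMIs made up 13% and 11.8% of GL261 and 8.68%, 12.6%, 21.8% and 45.2% of GL261-GSCs. This range began at each library's own minimum for cells, so it was not the same in all. The minimum was 3006.9 and 2619.9 UMIs in GL261 and 3274.3, 2653.7, 2722.5 and 2059.5 UMIs in GL261-GSCs. In those shallow cells the nuclear share was lower in GL261-GSCs (2.02%, 2.10%, 1.81% and 1.73%) than in GL261 (2.48% and 2.40%), the reverse of the order from 10000 UMIs on. From 6000 to 10000 UMIs the order was mixed, with GL261-GSCs replicate 1 (2.59%) below GL261 (2.85% and 2.97%). In cells of 10000 to 16000 UMIs it was 3.07% in both GL261 libraries and 3.81%, 3.72%, 3.58% and 3.57% in GL261-GSCs. As plain shares without TMM factors, the GL261-GSCs mean was 1.2 times the GL261 mean, and the 4 stem cell libraries were close to each other. This range held 28.3% and 44.1% of the cells of GL261 and 30.9%, 47.85%, 37.4% and 21.6% of those of GL261-GSCs. The mitochondrial share in that range was 0.917% and 0.821% against 1.06%, 0.928%, 1.12% and 1.11%. Without mt-Co1 it overlapped, with 0.728% and 0.646% against 0.813%, 0.699%, 0.742% and 0.657%.

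**Figure D4:**
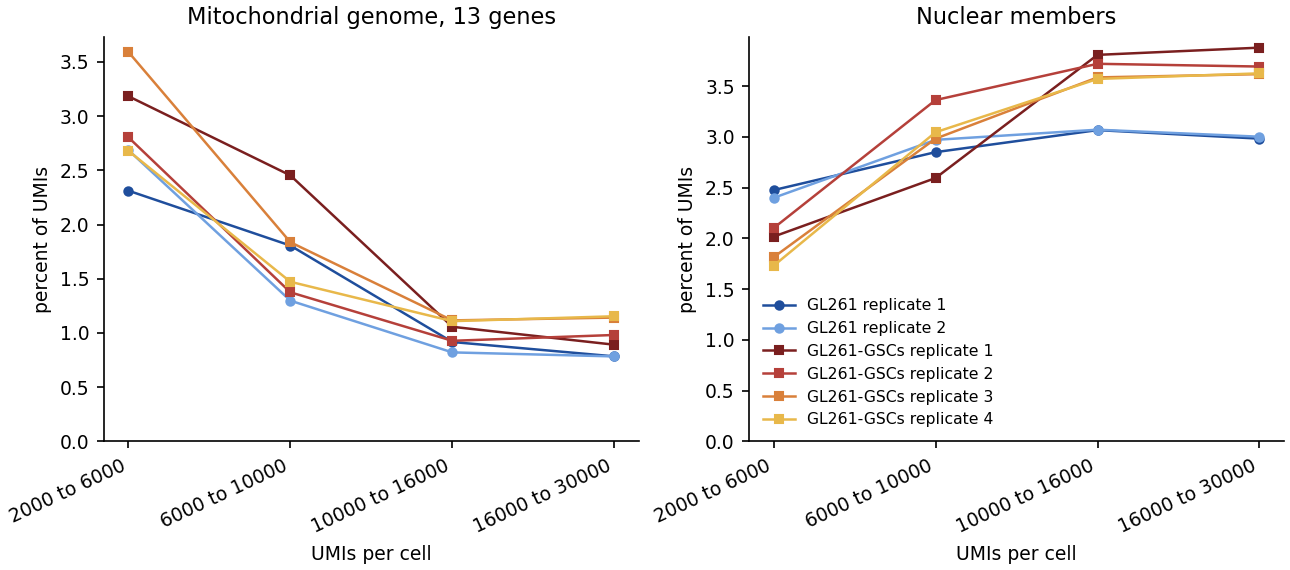
Share of UMIs from the 13 mitochondrial (left) and 102 nuclear members (right) in cells of 4 ranges of UMIs per cell, 1 line per library. In each library the mitochondrial share is highest and the nuclear share lowest in cells of 2000 to 6000 UMIs. From 10000 UMIs on, the nuclear share is 2.98% to 3.07% in GL261 and 3.57% to 3.88% in GL261-GSCs, while below 6000 UMIs the order is the reverse.

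The test was therefore repeated, after these data were seen, on cells of 10000 to 16000 UMIs only. There 25 of 97 nuclear members were higher and 8 lower, 34.0% called, beside 33.3% of all 15452 genes tested (17.7% higher and 15.5% lower). The median of the nuclear members was 0.14, beside 0.04 for all genes. Of the 17 calls made over all cells, 16 held, and Ndufv3 did not (log2 fold change 0.91, SE 0.31, adjusted p = 0.0602, edgeR), although its fold change was not smaller than over all cells. Cox8a (log2 fold change 0.64, adjusted p = 0.00464, edgeR) was now higher, with Ndufb2, Ndufs6, Atp5k, Atp5l and Uqcr11 among the others. Sdhb was lower (log2 fold change -0.37, adjusted p = 0.0311, edgeR), as were Ndufs8 and Uqcrq. Complex III had 3 members higher and 1 lower. mt-Nd6 was the 1 mitochondrial gene called (log2 fold change 0.73, adjusted p = 0.0215, edgeR), and mt-Co1 was not (log2 fold change 0.79, adjusted p = 0.11, edgeR).

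In the RefSeq promoter windows (GRCm38.p6, 250 bases before to 50 after the start), 80 of the 101 nuclear symbols had an entry, 13 of the 17 called ones among them. Short motifs of the factors known for these genes were searched on both strands: NRF1 (GCGCATGCGC), the ETS motif that GABP binds (CCGGAAG) and YY1 (AAGATGGC). The NRF1 motif was in 8.8% of the 80 members and 1.1% of all 27025 genes with a window, the ETS motif in 26.2% and 9.9%, and the YY1 motif in 13.8% and 3.2%. Among the 13 called members, Atp5g2 and Ndufs4, which rose, and Ndufaf8 and Ndufaf1, which fell, held at least 1. Members that were not called held motifs too, such as Uqcrc1 (NRF1) and Ndufa9 (YY1). No test compared called members with the others. Of the windows of called members with a motif, 3 follow, since they show the motifs in a gene of each direction. The motif is in capitals, 5′ to 3′ on the gene's strand.
Ndufs4, chr13:114388045-114388344, minus strand, YY1 motif: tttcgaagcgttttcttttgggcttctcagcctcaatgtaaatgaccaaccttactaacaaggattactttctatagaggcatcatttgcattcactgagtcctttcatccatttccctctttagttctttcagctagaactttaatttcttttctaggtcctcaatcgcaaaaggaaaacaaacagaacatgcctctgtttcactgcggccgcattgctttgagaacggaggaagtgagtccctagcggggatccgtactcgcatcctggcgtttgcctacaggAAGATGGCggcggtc
Atp5g2, chr15:102670998-102671297, minus strand, NRF1 motif: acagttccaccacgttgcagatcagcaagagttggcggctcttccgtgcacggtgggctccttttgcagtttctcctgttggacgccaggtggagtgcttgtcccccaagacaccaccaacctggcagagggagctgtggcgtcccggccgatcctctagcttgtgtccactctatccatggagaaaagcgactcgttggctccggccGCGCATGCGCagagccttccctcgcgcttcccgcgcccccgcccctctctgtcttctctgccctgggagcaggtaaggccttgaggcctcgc
Ndufaf8, chr11:120098684-120098983, plus strand, ETS and YY1 motifs: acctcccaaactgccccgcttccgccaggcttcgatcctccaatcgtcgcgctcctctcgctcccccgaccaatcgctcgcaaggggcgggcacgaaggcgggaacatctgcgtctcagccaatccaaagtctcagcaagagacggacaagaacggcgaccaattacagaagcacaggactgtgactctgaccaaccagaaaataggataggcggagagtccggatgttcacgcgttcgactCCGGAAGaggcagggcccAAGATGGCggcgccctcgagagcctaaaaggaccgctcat
A match describes these letters only. The YY1 motif thus occurred in a member that rose (Ndufs4) and in one that fell (Ndufaf8).

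Several called members lay on chromosomes whose other genes had a median fold change of the same sign, and others did not. Of the 12 that rose, 4 lie on chromosome 13 (Cox7c, Ndufaf2, Sdha and Ndufs4), 3 on chromosome 15 (Atp5g2, Cox6c and Ndufa6) and 2 on chromosome 17 (Ndufv3 and Ndufaf7). Both tested members on chromosome 18, Ndufa2 and Atp5a1, fell. Among genes other than members with more than 8 CPM on average, the median log2 fold change was 0.30 on chromosome 13 (318 genes), 0.29 on chromosome 15 (389 genes) and 0.15 on chromosome 17 (460 genes). It was -0.66 on chromosome 18 (245 genes) and -0.30 on chromosomes 7 and 11. Over all genes tested, 26% on chromosome 13 and 28.3% on chromosome 15 were called higher, and 36.6% on chromosome 18 were called lower. Of the 17 called members, 14 had the sign of their chromosome's median, as had 69 of all 98 tested. Less that median, Atp5a1 was at 0.01 and Ndufa2 at -0.16, Cox7c stood at 0.74 and Sdha at 0.56, and Cox6b2, on chromosome 7, at 1.65. Ndufs6b, also on chromosome 7, and Atp5s, on chromosome 12 (median -0.04), rose against the sign of their chromosome, and the medians of chromosomes 2 and 9, with Ndufaf1 and Ndufaf3, were -0.02 and -0.01. Across the 98 members, Pearson's r between the fold change and the chromosome's median was 0.39 and Spearman's rho 0.53, as a description over genes that share libraries. Chromosome copy number was not measured here, and its part in these changes was not tested.

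**Figure D5:**
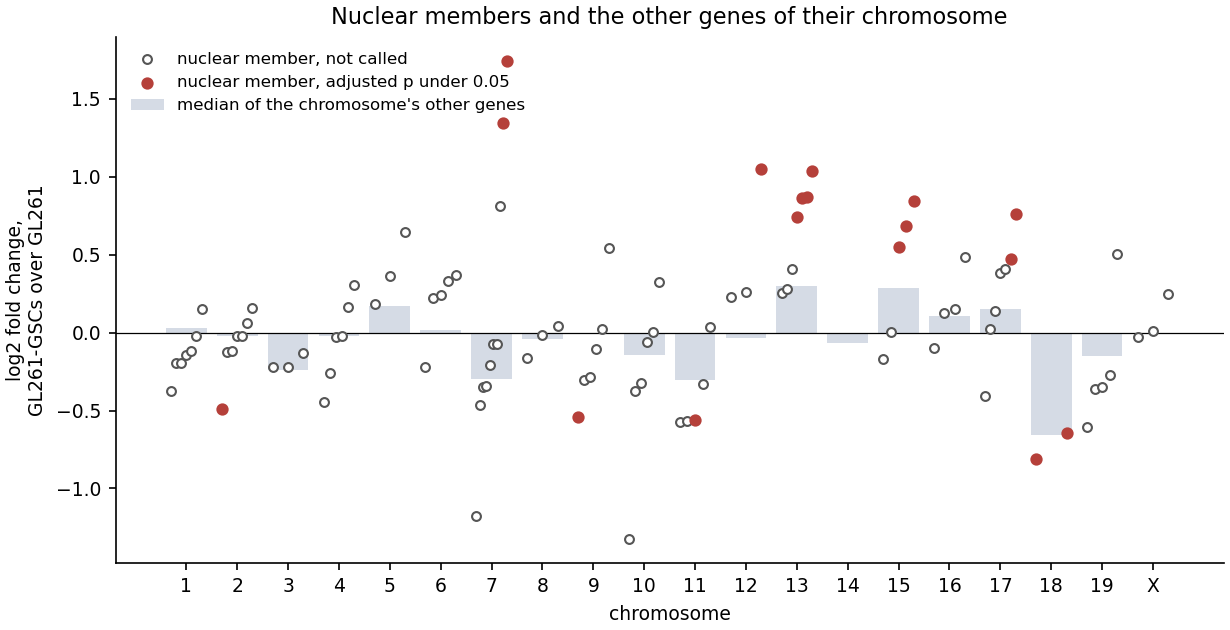
Log2 fold change (GL261-GSCs over GL261) of each tested nuclear member by chromosome, over bars for the median of the other genes of that chromosome. Filled points passed an adjusted p under 0.05: 4 lie on chromosome 13, 3 on chromosome 15 and 2, both lower, on chromosome 18. Cox7b2 on chromosome 5, high in 1 library, is off the axis and not drawn.

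Genes that control or serve the chain were read from 10 further lists, whose counts are to be set beside the 29.9% above. Of the regulators of mitochondrial biogenesis, 2 of 14 tested rose and 1 fell. Ppargc1a, the coactivator PGC-1α, had 0.0296 and 0 CPM in GL261 (2 UMIs) and 3.25, 5.8, 4.01 and 4.83 CPM in GL261-GSCs (1131 UMIs), a ratio of 284 with a 95% counting interval of 78.4 to 2350 (adjusted p = 0.000533, edgeR). Ppargc1a UMIs were found in 3.77% to 6.75% of GL261-GSCs cells, where an even spread by depth would give 3.8% to 6.87%. Ppard, a fatty acid-sensing nuclear receptor, rose from 12.1 and 12 CPM to 30.3, 37.5, 45 and 39.6 CPM (log2 fold change 1.66, SE 0.19, adjusted p = 0.00131, edgeR). Gabpb2, a partner subunit of GABP, fell from 35 and 39.9 CPM to 19.4, 18.7, 16.8 and 15.4 CPM (log2 fold change -1.09, SE 0.15, adjusted p = 0.00231, edgeR). Nrf1, Gabpa and Esrra, the DNA-binding factors that PGC-1α works with, were not called (adjusted p = 0.814, 0.22 and 0.5, edgeR).

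Genes serving the mitochondrial genome were mostly not called. Of 25 genes for its transcription, RNA handling and translation, 2 rose and none fell, Gfm2 from 9.61 and 10.4 CPM to 16.1, 16.3, 19.6 and 22.7 CPM (adjusted p = 0.0151, edgeR) being the one with the smaller p. Tfam, which packages and transcribes the mitochondrial genome, had 62.1 and 65.7 CPM against 68.1, 66.3, 56.2 and 43.4 CPM (adjusted p = 0.656, edgeR). Of 78 mitochondrial ribosomal protein genes, 2 rose and 8 fell, with a median log2 fold change of -0.26, Mrps16 falling from 264 and 311 CPM to 172, 162, 192 and 171 CPM (adjusted p = 0.00774, edgeR). Both that rose over all cells, Mrps27 and Mrps30, lie on chromosome 13. In cells of 10000 to 16000 UMIs 5 of the 78 were higher and 10 lower, with a median log2 fold change of -0.13. The cytosolic ribosome list had 4 of 94 higher and 8 lower, and the balance turned in cells of 10000 to 16000 UMIs, with 8 higher and 4 lower (median log2 fold change -0.06 over all cells and 0.09 there). It takes its members by symbol and so includes the ribosomal S6 kinases, of which Rps6ka4 fell from 71.1 and 81.2 CPM to 16.4, 19.3, 22.2 and 19.1 CPM. Only 2 of 24 mitochondrial tRNA and rRNA genes were tested, both described above.

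Of 17 electron carriers and shuttles, 3 rose and 4 fell. Sqor, which passes electrons from hydrogen sulfide to ubiquinone, rose from 3.54 and 3.91 CPM to 12.5, 13.1, 8.24 and 6.7 CPM (log2 fold change 1.45, SE 0.33, adjusted p = 0.0186, edgeR), and the ubiquinone synthesis genes Coq6 and Coq9 rose too. Etfa, Etfb and Etfdh, which carry electrons from fatty acid oxidation to ubiquinone, and Gpd2, the glycerol phosphate shuttle enzyme, fell. Cycs, cytochrome c, had 452 and 426 CPM against 497, 456, 341 and 207 CPM (adjusted p = 0.637, edgeR). Of 30 assembly factors of complexes III to V, 1 rose (Uqcc1, 27.5 and 27 CPM against 37.4, 35.7, 38.9 and 38.2 CPM) and 1 fell (Atpaf2, 29.8 and 31.3 CPM against 23, 21.5, 20.5 and 19 CPM). Of 18 genes of the citric acid cycle and pyruvate dehydrogenase, 2 rose and 1 fell. Suclg2, a subunit of succinyl-CoA ligase, rose from 30.8 and 34.7 CPM to 50.9, 50.4, 46 and 40.8 CPM (adjusted p = 0.0344, edgeR), and Pdha1, a subunit of pyruvate dehydrogenase, fell from 186 and 198 CPM to 150.5, 132, 149 and 132 CPM (adjusted p = 0.0328, edgeR). Of 21 genes for mitochondrial mass and import, Timm44 rose (32.5 and 31.2 CPM against 53.4, 54.3, 56 and 48.3 CPM, adjusted p = 0.00562, edgeR). Its partner at the import motor, Hspa9 on chromosome 18, fell (593 and 614 CPM against 336, 254, 306 and 219 CPM, adjusted p = 0.00575, edgeR).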

How the data were processed

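Single-cell 5′ libraries of 2 GL261 and 4 GL261-GSCs samples were analysed. The authors deposited UMI counts per gene and barcode, made with Cell Ranger (version 4, per the file headers) on mm10, per the submitters' processing notes. Barcodes were kept with at least 10% of the UMIs of the 99th percentile of the 3000 largest barcodes, 500 genes and at most 10% mitochondrial UMIs. No doublets were removed. UMIs were summed per library and tested with edgeR 4.0.16 (TMM, filterByExpr). Members and lists were chosen with earlier results of these data known. Named were all mitochondrial members, the 12 largest called rises and falls without overlap, isoform sets, core subunits, each list's smallest p and selected regulators. Of the genes this rule names, 1 is not reported here. Other genes named, such as Sdhc, Suclg2, Pdha1, Gabpb2, Hspa9, Coq6 and Gm28438, were chosen after their values were seen. Coordinates come from GENCODE M21 (GRCm38), matched by identifier for 99.9% of genes, and promoters from RefSeq. The chromosome comparison was added after the data were seen. Alternatives included DESeq2 1.42.0 and limma-voom 3.58.1. Intervals cover counting error only.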

Additional observations from a re-analysis of the deposited data

Results flagged for a closer look

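Of 79 values tested over the 4 GL261-GSCs libraries (the named genes and the sums), 1 stood apart by the gap between the highest and the next library. Cox7b2 had 40.9 CPM in GL261-GSCs replicate 1, where the others had 0 to 0.828 CPM, so that the gap was 0.98 of the whole range, above the critical value for 4 libraries. By chance about 1 in 20 such values would be marked.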

How the results depend on the processing

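Counts of nuclear members called higher (12) and lower (5) depended on the setting. For most settings the count of all genes called is not given beside them, so they describe the setting and not the members. Library size scaling gave 19 higher and 2 lower, cells thinned to 2000 UMIs 6 higher, cells of 10000 to 16000 UMIs (added after the data were seen) 25 higher and 8 lower, DESeq2 8 lower, and no filter 3 lower. Leaving out a library gave 2 to 18 higher and 0 to 7 lower, and the count of all genes called (5514) became 1817 to 6193. For mitochondrial genes called higher (0), no filter, cells of 10000 to 16000 UMIs and the replicate block gave 1 each, DESeq2 3, and leaving out a library 0 to 2. Their median (0.19) ranged from 0.056 to 0.403 with a library left out. The nuclear median (-0.02) was 0.13 with library size scaling and 0.10 with the replicate block. No call reversed among the 69 named genes, and 8 of the 17 called members were kept in all 14 other settings and Ndufs6b in the 13 that tested it. The cause of each change was not tested, beyond fewer libraries or genes. The deviations of same-numbered libraries from their group means had correlations of -0.03 and 0.04 for 2 pairs. With 2 GL261 libraries the deviations of one mirror those of the other, so these values cannot tell whether the libraries were paired. Replicate numbers 1 and 2 occur in both groups, so the replicate block compared the groups within replicates 1 and 2 only. The remaining GL261-GSCs libraries, whose numbers GL261 lacks, did not enter its group difference. With the replicate block 23 nuclear members were higher and 5 lower. The count of all genes called with the block is not given beside them, so the change is not read as one of the members. Calls of Ndufaf1, Ndufaf7 and Ndufaf8 were lost (adjusted p = 0.0916, 0.0524 and 0.0553, edgeR). Those gained were Ndufb2, Ndufs6, Sdhaf3, Uqcr11, Uqcrb, Cox7b2, Cox8a, Ndufa4, Atp5j2, Atp5k, Atp5l and Atp5mpl, higher, Uqcrc2 and Cox6a2, lower, and mt-Nd6, higher (adjusted p = 0.0362, edgeR). The nuclear sum, 0.419 percentage points higher in GL261-GSCs, was 0.101 higher as a share of the TMM-scaled library size (added after the data were seen). Low depth limits Cox4i2, Cox8b, Cox8c, Ndufa11b, Ndufa4l2, mt-Nd3 and Ndufs6b, among others.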
